A study of Danio rerio with 24 samples.

Results

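Antioxidant, thioredoxin and glutathione genes were followed in the skeletal muscle of adult zebrafish (Danio rerio) that carried a PGC1alpha transgene or had undergone chronic exercise. They were chosen by gene symbol, as superoxide dismutases, catalase, glutathione peroxidases, peroxiredoxins, thioredoxins and their domain family, glutaredoxins, glutathione transferases, enzymes of glutathione synthesis and reduction, nqo1, heme oxygenases, sulfiredoxin, and the NRF and KEAP1 genes. The rule found 80 of the 31953 Ensembl gene IDs in the count table, and no measured value entered it. Of these, 76 passed the filter on low counts. The others were sod3a, txnrd2, gsto1 and gstp2, and txnrd2 had no counts in any library. The symbol pattern also took genes with other roles, such as txnbb, which encodes tenascin XBb, and txnl4a and txnl4b, which are named for a thioredoxin-like fold and belong to the splicing machinery.

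Fish of 3 groups, all 4 months old, were compared. Untrained_TG fish were not trained and carried actc1b:PGC1alpha, trained_WT fish were wild type and had been exercise trained, and untrained_WT fish were wild type and not trained. PGC1alpha, a coactivator of transcription, is best known for inducing the formation of mitochondria, and the promoter named in the transgene is that of actc1b, an actin gene of muscle. The labels name neither the strain, the number of founders of the transgenic line nor the species of the PGC1alpha sequence, and leave unsaid whether 1 fish or several gave each sample. The p-values therefore reflect how far these samples spread, which may in part be technical. The labels list 24 samples, 8 per group, and 21 libraries were analysed here, 7 per group.

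In units of 1000000 counts over genes, libraries held 42.8 to 78.1 in untrained_TG, 72.1 to 78.6 in trained_WT and 71.0 to 79.2 in untrained_WT. Fast muscle markers summed to a median of 27428 CPM in untrained_TG, 142585 CPM in trained_WT and 127735 CPM in untrained_WT (CPM, counts per 1000000 with TMM-scaled library sizes). Slow muscle markers summed to a median of 9388 CPM in untrained_TG, 1454 CPM in trained_WT and 1134 CPM in untrained_WT. Mitochondrially encoded genes took 42.8 to 49.4% of counts in untrained_TG, 9.67 to 13.7% in trained_WT and 8.17 to 14.8% in untrained_WT. Untrained_WT replicates 3, 5 and 7 lay apart from the other untrained_WT libraries on the second principal component, and values without them are given beside several of the genes named. Untrained_TG replicate 2 also lay apart on it, at 72.0 against -20.2 to 29.4 in the other transgenic libraries. No alternative left this library out. Endogenous ppargc1a was at a median of 14.3 CPM in untrained_TG, 21.5 CPM in trained_WT and 37.9 CPM in untrained_WT, and its count may not include the transgene, so it does not check the genotype labels.

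Oxygen metabolism releases superoxide, which superoxide dismutases turn into hydrogen peroxide. Peroxiredoxins, glutathione peroxidases and catalase then remove the peroxide. The thioredoxin and glutathione systems, fed by NADPH, keep the peroxiredoxins and glutathione peroxidases reduced. Mitochondria, the cytosol and the endoplasmic reticulum each hold their own set. NRF2 activates many of the cytosolic genes and is held back by KEAP1. In zebrafish the NRF2 genes are nfe2l2a and nfe2l2b, which need not act alike, and the KEAP1 genes are keap1a and keap1b.

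In untrained_TG against untrained_WT, 17 of the 76 tested genes rose and 17 fell (edgeR quasi-likelihood F test, Benjamini-Hochberg adjusted p under 0.05 over all genes tested). That is 44.7% of them, close to the 43.4% called among all 18947 genes tested, of which 18.3% were higher and 25.1% lower. Their median log2 fold change was 0.10, against -0.13 over all genes. Scaled by library totals alone, 8 rose and 28 fell, where 1538 of all 18947 genes tested were higher and 8139 lower. The median over all genes then moved to -0.64. In CPM, libraries of the groups did not overlap for 12 of the 76, the same share as the 15.8% among all genes.

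**Figure D1:**
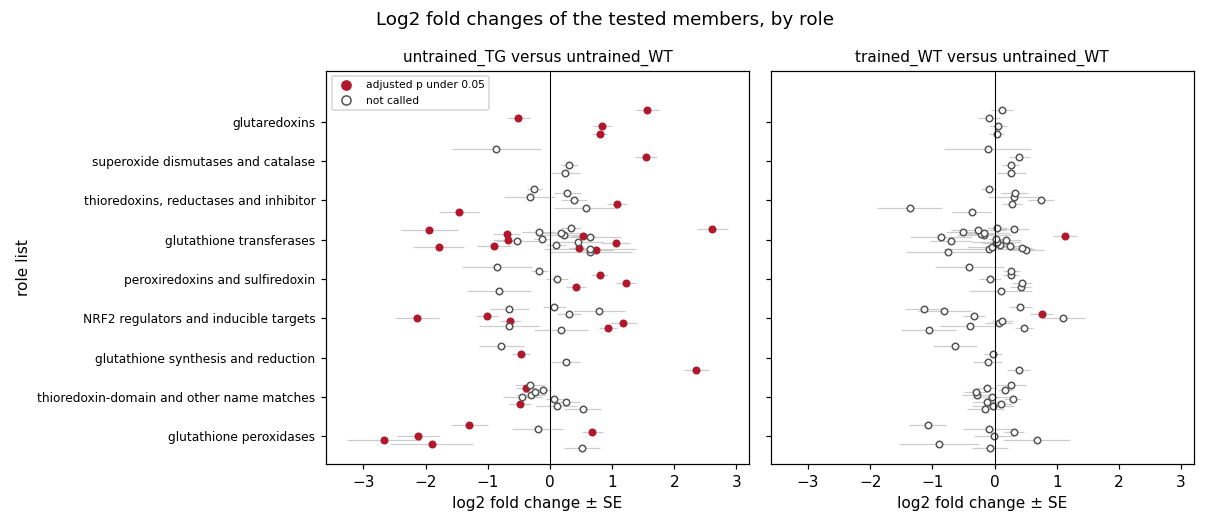
Log2 fold changes (x axis, bars are ± SE) of the 76 tested genes by role (y axis), for untrained_TG versus untrained_WT on the left and trained_WT versus untrained_WT on the right. Filled points had an adjusted p under 0.05. In untrained_TG 17 filled points lie to the right and 17 to the left of 0, and in trained_WT 2 filled points, gstt1b and nfe2l2a, both lie to the right.

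Genes of the mitochondrial list moved in untrained_TG without exception among the 10 tested: 7 rose and 3 fell, and their median log2 fold change was 0.82. Of the 26 tested genes of the cytosolic list 6 rose and 3 fell, or 34.6%, with a median log2 fold change of 0.24. Among all genes tested 43.4% were called, and the difference between the lists was not tested. The mitochondrial list holds sod2, prdx3, prdx5, txn2, glrx2, glrx5, the kappa-class transferases gstk1, gstk2 and gstk4, and 2 IDs named as thioredoxin reductase 2. Genes were placed on it by the location of the mammalian proteins, and the kappa-class genes by that of their class. Where the zebrafish proteins lie was not measured. The genes of the list that rose were sod2, prdx3, prdx5, txn2, glrx2, glrx5 and gstk1, and those that fell were gstk2, gstk4 and TXNRD2. The muscle fibre markers moved with this list: in untrained_TG against untrained_WT, 4 of 5 slow muscle markers rose, with sums of 7344 to 11289 CPM in untrained_TG and 710 to 1247 CPM in untrained_WT. Of 12 fast muscle markers 8 fell and 1 rose, with sums of 26446 to 33097 CPM in untrained_TG and 51478 to 155476 CPM in untrained_WT. The part of fibre type in the mitochondrial result was not tested. In bulk muscle, a change in the mix of cells and a change in RNA per cell cannot be told apart.

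The matrix superoxide dismutase gene sod2 had 310 to 480 CPM in untrained_TG, with a median of 328, and 75.8 to 178 CPM in untrained_WT, with a median of 130. Every transgenic library lay above every untrained_WT library, and it rose by 1.54 ± 0.17 log2 units (SE, adjusted p = 2.68e-07), or 2.91-fold. Peroxiredoxin 3, the main peroxide-removing enzyme of the matrix, had 288 to 448 CPM in untrained_TG, with a median of 358, against 105 to 199 CPM in untrained_WT, with a median of 177. Its groups were also apart, and it rose by 1.22 ± 0.16 (adjusted p = 2.31e-06). Mitochondrial thioredoxin txn2, which reduces peroxiredoxin 3, had 64.8 to 133 CPM in untrained_TG, with a median of 92.8, against 32.5 to 55.1 CPM in untrained_WT, with a median of 41.9. It rose by 1.08 ± 0.16 (adjusted p = 1.25e-05), again with no overlap. Peroxiredoxin 5, which is found in mitochondria and elsewhere, had 34.4 to 46.8 CPM in untrained_TG, with a median of 42.4, against 16.6 to 29.1 CPM in untrained_WT, with a median of 25.3. It rose by 0.80 ± 0.13 (adjusted p = 3.76e-05), a call lost with library totals only (0.32, adjusted p = 0.089).

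Both glutaredoxin genes of the mitochondrial list rose in untrained_TG. Glutaredoxin 5, which serves iron-sulfur cluster assembly, had 91.3 to 163 CPM in untrained_TG, with a median of 117, against 21.6 to 57.8 CPM in untrained_WT, with a median of 43.3. The groups were apart and the log2 fold change was 1.57 ± 0.18 (adjusted p = 3.9e-07). Glutaredoxin 2, a glutathione-dependent thiol reductase, had 14.4 to 29.4 CPM in untrained_TG, with a median of 20.8, against 9.6 to 14.6 CPM in untrained_WT, with a median of 12.9. It rose by 0.84 ± 0.15 (adjusted p = 0.000109), with the lowest transgenic library inside the untrained_WT range.

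The kappa-class glutathione transferase genes of the mitochondrial list went different ways. A further ID, named GSTK1 (1 of many), was put on no location list. It had 5.64 to 81.1 CPM in untrained_TG, with a median of 11.9, and 3.3 to 32 CPM in untrained_WT, with a median of 24.7. Its log2 fold change of 0.65 ± 0.67 did not pass the test (adjusted p = 0.458). The gene gstk1 had 260 to 493 CPM in untrained_TG, with a median of 301, and 179 to 338 CPM in untrained_WT, with a median of 243. Its rise of 0.47 ± 0.17 (adjusted p = 0.0247) was lost without untrained_WT replicates 3 and 7 (0.36, adjusted p = 0.108) and with library totals only (0.0037, adjusted p = 0.986). The gene gstk2 had 5.55 to 31.6 CPM in untrained_TG, with a median of 8.62, and 17.7 to 64.5 CPM in untrained_WT, with a median of 33.3. It fell by 1.79 ± 0.41 (adjusted p = 0.00115), and the transgenic values overlapped untrained_WT in replicate 4 only. The gene gstk4 had 117 to 216 CPM in untrained_TG, with a median of 151, and 183 to 562 CPM in untrained_WT, with a median of 302. Its fall of 0.90 ± 0.28 (adjusted p = 0.0127) was lost without untrained_WT replicates 3, 5 and 7 (-0.68, adjusted p = 0.0697) and with limma-voom (-0.67, adjusted p = 0.0528).

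Thioredoxin reductase 2 is the NADPH-fed enzyme that reduces mitochondrial thioredoxin. Its symbol stands on more than 1 ID. The ID spelled TXNRD2 had 0.248 to 0.684 CPM in untrained_TG, with a median of 0.481, and 0.66 to 2.7 CPM in untrained_WT, with a median of 1.23. It fell by 1.46 ± 0.32 (adjusted p = 0.000762), with a narrow overlap of the groups. The ID spelled txnrd2 was at 0 throughout, so reads of this enzyme may be split or lost in the authors' counting.

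**Figure D2:**
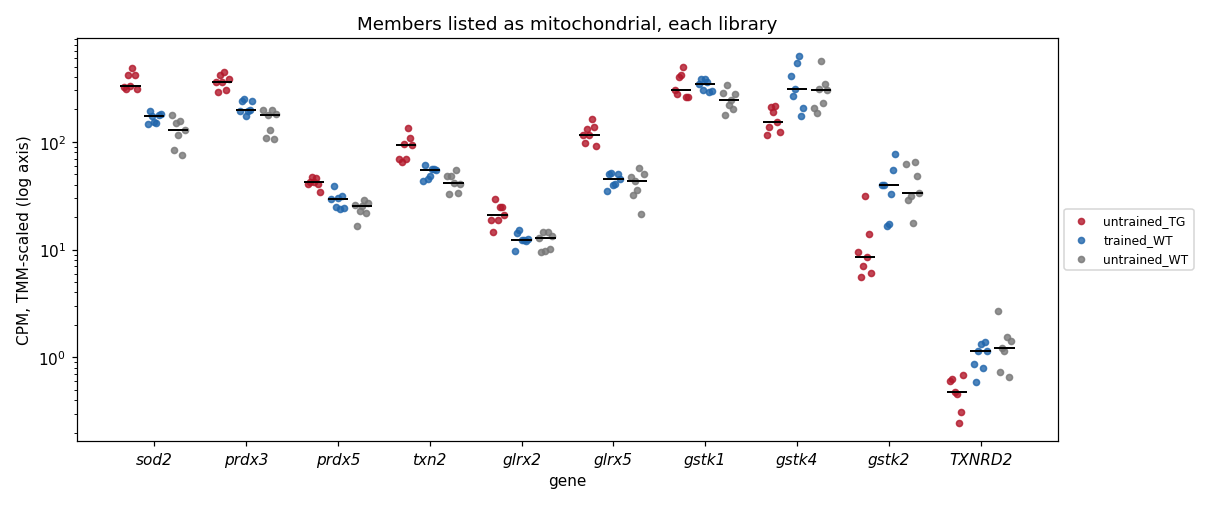
CPM (log axis) of the 10 tested genes of the mitochondrial list, by gene on the x axis. Points are libraries (untrained_TG, trained_WT and untrained_WT from left to right, n = 7 each) and bars are medians. For sod2, prdx3, prdx5, txn2 and glrx5 all untrained_TG points lie above all untrained_WT points, and for gstk2, gstk4 and TXNRD2 the untrained_TG medians lie below the others.

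Summed over the mitochondrial list, levels were 1236 to 2014 CPM in untrained_TG, with a median of 1460, 1038 to 1491 CPM in trained_WT, with a median of 1251, and 675 to 1157 CPM in untrained_WT, with a median of 1057. Summed over the 28 genes of the cytosolic list they were 631 to 771 CPM in untrained_TG, 623 to 766 CPM in trained_WT and 516 to 704 CPM in untrained_WT. The count ratio of the mitochondrial to the cytosolic list had a median of 2.08 in untrained_TG, 1.73 in trained_WT and 1.63 in untrained_WT, and the 3 ranges overlapped. Without the 3 kappa-class genes of the list this ratio was 1.2 to 1.73 in untrained_TG. It was 0.664 to 0.818 in trained_WT and 0.419 to 0.897 in untrained_WT, so that the transgenic libraries stood apart from all others. Leaving out these genes was not planned, and gstk2 and gstk4 had fallen in untrained_TG, so the choice itself favours such a gap. Scaled by library totals alone, the mitochondrial sums overlapped, at 1176 to 1454 CPM in untrained_TG and 911 to 1723 CPM in untrained_WT. These sums are a description with no test, and genes with high counts weigh most in them.

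The genes of the mitochondrial list were next set against citrate synthase (cs), a citrate cycle enzyme, by the log2 ratio of counts in each library. The activity of this enzyme is often read as a measure of mitochondrial content, but only its RNA was counted here. In untrained_TG against untrained_WT, cs rose by 1.60 ± 0.16 (adjusted p = 3.87e-08). The ratio of sod2 to cs had a median of -2.27 in untrained_TG and -2.27 in untrained_WT, a difference in means of -0.025 (exact two-sided permutation p = 0.822, adjusted p = 0.865 over 20 tests). The ratio of glrx5 to cs differed by -0.0012 (exact permutation p = 0.996, adjusted p = 0.996). The other 8 of the 10 genes were lower relative to cs in untrained_TG. As cs rose by 1.60, against a median of -0.13 over all genes, any gene that rose less than cs falls in this ratio. How many of all genes fall in it was not counted. The ratio differed by -3.54 for gstk2, -2.99 for TXNRD2, -2.45 for gstk4, -1.15 for gstk1, -0.79 for prdx5, -0.77 for glrx2 and -0.36 for prdx3, with no overlap and an exact permutation p of 0.000583 each, the smallest that 3432 splits allow (adjusted p = 0.00146). For txn2 it differed by -0.55 (exact permutation p = 0.00175, adjusted p = 0.00389). With the complex II gene sdha in place of cs, gstk1, gstk2, gstk4 and TXNRD2 stayed lower. The ratios of glrx2 (-0.35, exact permutation, adjusted p = 0.0566), prdx5 (-0.37, adjusted p = 0.067), txn2 (-0.13, adjusted p = 0.516) and prdx3 (0.063, adjusted p = 0.688) to sdha did not pass. Those of sod2 and glrx5 to sdha were higher in untrained_TG, by 0.39 (exact permutation, adjusted p = 0.00291) and 0.42 (exact permutation, adjusted p = 0.0194).

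In trained_WT against untrained_WT, cs rose by 0.58 ± 0.15 (adjusted p = 0.0401), and 4 of the 10 genes were lower relative to it. The ratio differed by -0.54 for glrx2 with no overlap (exact permutation, adjusted p = 0.00146), -0.89 for TXNRD2 (adjusted p = 0.00932), -0.43 for glrx5 (adjusted p = 0.0191) and -0.31 for txn2 (adjusted p = 0.034). Without untrained_WT replicate 7 the value for txn2 was -0.30 (exact permutation, adjusted p = 0.0583). With sdha in place of cs none of these 4 passed, at -0.20 for glrx2 (exact permutation, adjusted p = 0.161), -0.55 for TXNRD2 (adjusted p = 0.0734), -0.098 for glrx5 (adjusted p = 0.442) and 0.023 for txn2 (adjusted p = 0.907). The cs and sdha comparisons were chosen after the data had been seen. They set each gene against the change of cs or sdha RNA and do not measure mitochondrial content.

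Outside mitochondria, the genes of superoxide removal and of catalase moved little in untrained_TG. The cytosolic superoxide dismutase gene sod1 had 41.1 to 65.1 CPM in untrained_TG, with a median of 51, and 28.1 to 49.5 CPM in untrained_WT, with a median of 42.4 (log2 fold change 0.31 ± 0.14, adjusted p = 0.0767). It was called when mitochondrially encoded genes were left out before scaling (0.41, adjusted p = 0.0231) and with the replicate block (0.37, adjusted p = 0.0486), and it turned direction with library totals only (-0.13, adjusted p = 0.479). Catalase, the peroxisomal peroxide-splitting enzyme, had 22.5 to 46.9 CPM in untrained_TG, with a median of 30.8, and 17 to 48.2 CPM in untrained_WT, with a median of 28.1 (0.25 ± 0.23, adjusted p = 0.394). Of the extracellular superoxide dismutases, sod3b was at or under 1.02 CPM in every library and sod3a was below the filter.

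Of the 7 genes in the list of peroxiredoxins and sulfiredoxin, 3 rose in untrained_TG and none of the others passed the test. The share called, 42.9%, was close to the 43.4% among all genes tested. Besides prdx3 and prdx5 the gene that rose was cytosolic prdx2, with 95.8 to 166 CPM in untrained_TG, a median of 108, and 57.4 to 112 CPM in untrained_WT, a median of 84.5. Its rise of 0.42 ± 0.16 (adjusted p = 0.0431) was lost without untrained_WT replicate 7 (0.36, adjusted p = 0.0659). Cytosolic prdx1 ranged over 5.11 to 18.5 CPM in untrained_TG and 3.31 to 51.4 CPM in untrained_WT (-0.82 ± 0.52, adjusted p = 0.209). Its direction turned without untrained_WT replicates 3, 5 and 7 (0.44, adjusted p = 0.485) and with limma-voom (0.25, adjusted p = 0.701). The highest prdx1 value, in untrained_WT replicate 5, stood in the library with the highest red blood cell marker sum (2101 CPM, against 287 to 501 CPM in the other untrained_WT libraries), and the part of blood in it was not tested. Cytosolic prdx6 did not pass, at -0.17 ± 0.13 (adjusted p = 0.324), prdx4 of the endoplasmic reticulum 0.11 ± 0.18 (adjusted p = 0.63), and srxn1, which repairs oxidised peroxiredoxins, -0.86 ± 0.57 (adjusted p = 0.232).

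Glutathione peroxidases, which remove peroxides at the cost of glutathione, fell in 4 of 7 genes and rose in 1. That is 71.4% called, against 43.4% among all genes tested. The gpx4 pair encodes the peroxidase that removes lipid peroxides in membranes. The gene gpx4a had 25.3 to 42.7 CPM in untrained_TG, with a median of 28.4, and 37.7 to 208 CPM in untrained_WT, with a median of 154. It fell by 2.12 ± 0.34 (adjusted p = 2.47e-05), and the lowest untrained_WT library, replicate 5, was the only one within the transgenic range. Its paralog gpx4b had 98.9 to 147 CPM in untrained_TG, with a median of 127, and 47.7 to 103 CPM in untrained_WT, with a median of 68.2. It rose by 0.68 ± 0.16 (adjusted p = 0.00201), a call lost with library totals only (0.25, adjusted p = 0.142).

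The other glutathione peroxidase genes that fell had few counts, with untrained_WT medians from 0.685 to 4.21 CPM. Secreted gpx3 had 0.0344 to 0.423 CPM in untrained_TG, with a median of 0.179, and 0.269 to 2.63 CPM in untrained_WT, with a median of 0.685 (-2.67 ± 0.59, adjusted p = 0.000877). Without untrained_WT replicates 3, 5 and 7 its log2 fold change was -1.49 (adjusted p = 0.0373). The gene gpx8, of the endoplasmic reticulum, had 0.584 to 2.57 CPM in untrained_TG and 1.72 to 5.79 CPM in untrained_WT (-1.30 ± 0.30, adjusted p = 0.00129). The cytosolic-type gene gpx1b had 0.22 to 3.85 CPM in untrained_TG and 1.44 to 6.81 CPM in untrained_WT (-1.90 ± 0.66, adjusted p = 0.0242), and the call was lost without untrained_WT replicates 3 and 7 (-1.77, adjusted p = 0.057). Its paralog gpx1a had 64.3 to 203 CPM in untrained_TG and 45.4 to 118 CPM in untrained_WT (0.52 ± 0.29, adjusted p = 0.16).

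The first enzyme of glutathione synthesis carried one of the 2 highest log2 fold changes of all genes followed here. The gene gclc, the catalytic subunit of glutamate-cysteine ligase, had 61.1 to 132 CPM in untrained_TG, with a median of 75.2, and 12.3 to 20.3 CPM in untrained_WT, with a median of 15. The groups were far apart and it rose by 2.35 ± 0.20 (adjusted p = 3.71e-09), or 5.12-fold, and it lay between 1.88 and 2.44 under all alternatives run. Its modifier subunit gclm had 3.03 to 9.67 CPM in untrained_TG, with a median of 5.19, and 3.73 to 7.6 CPM in untrained_WT, with a median of 4.25 (0.25 ± 0.23, adjusted p = 0.403). Glutathione synthetase gss, the second enzyme of the path, did not pass, at -0.78 ± 0.36 (adjusted p = 0.0844), and without untrained_WT replicates 3, 5 and 7 at -0.092 (adjusted p = 0.858). Glutathione reductase gsr, which regenerates glutathione from its oxidised form, had 5.59 to 12.3 CPM in untrained_TG, with a median of 8.65, and 10.2 to 14.3 CPM in untrained_WT, with a median of 11.8, and it fell by 0.46 ± 0.15 (adjusted p = 0.0132).

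**Figure D3:**
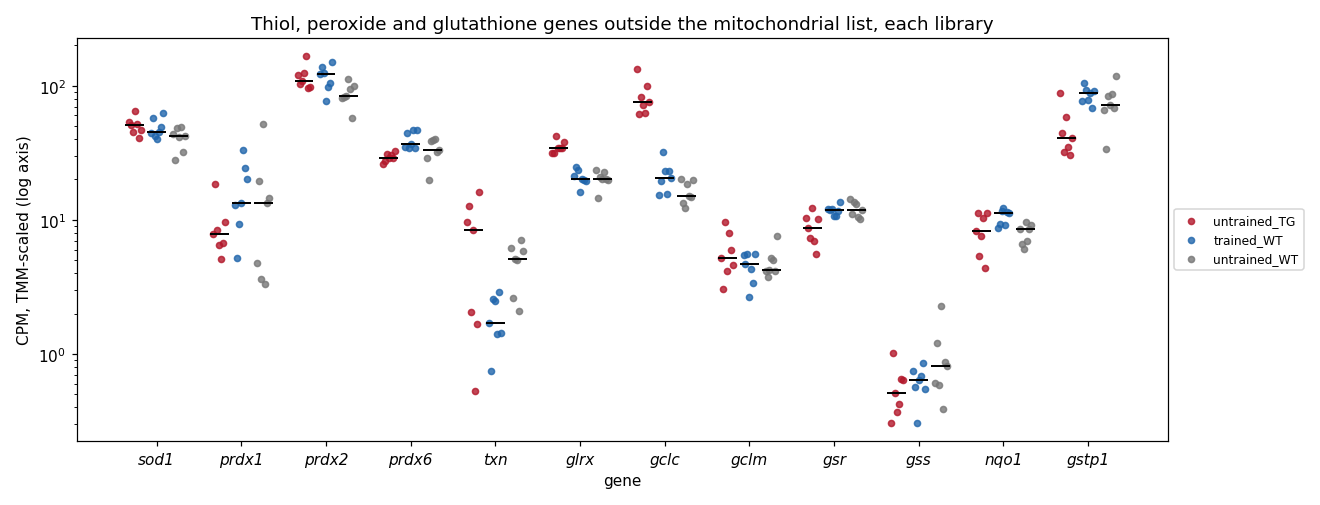
CPM (log axis) of 12 genes of the thiol, peroxide and glutathione systems outside the mitochondrial list, by gene on the x axis. Points are libraries (untrained_TG, trained_WT and untrained_WT from left to right, n = 7 each) and bars are medians. The untrained_TG points of gclc, at 61.1 to 132 CPM, and of glrx, at 31.3 to 42.5 CPM, lie above all wild-type points, while txn spreads over 0.532 to 16.1 CPM within untrained_TG.

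Among the cytosolic thiol reductases, glutaredoxin glrx had 31.3 to 42.5 CPM in untrained_TG, with a median of 34.2, and 14.6 to 23.4 CPM in untrained_WT, with a median of 20.1. It rose by 0.80 ± 0.12 (adjusted p = 9.29e-06) with no overlap, and the call was lost with library totals only (0.31, adjusted p = 0.0803). The iron-handling glutaredoxin glrx3 fell by 0.51 ± 0.18 (adjusted p = 0.0248). The gene that the authors annotate as txn, cytosolic thioredoxin, and that the ID table calls txnb, ranged over 0.532 to 16.1 CPM in untrained_TG and 2.11 to 7.11 CPM in untrained_WT (0.58 ± 0.51, adjusted p = 0.378). Transgenic replicates 3, 5 and 6 lay at or under 2.06 CPM and the other 4 at or over 8.47 CPM, so the group held no typical value. The reductase gene txnrd1, named TXNRD3 in the ID table, did not pass, at -0.26 ± 0.12 (adjusted p = 0.0929). The thioredoxin-binding arrestin genes had log2 fold changes of 0.39 ± 0.21 for txnipa (adjusted p = 0.136) and -0.33 ± 0.41 for txnipb (adjusted p = 0.541).

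Of the 23 glutathione transferase genes, which couple glutathione to reactive compounds, 21 were tested, 5 rose and 5 fell in untrained_TG. That is 47.6% called, close to the 43.4% among all genes tested. Microsomal mgst3a had 72.2 to 117 CPM in untrained_TG, with a median of 104, and 9.17 to 33.4 CPM in untrained_WT, with a median of 12.3. Its change was the highest of the 76, at 2.61 ± 0.26 (adjusted p = 3.71e-08), with the groups apart. Microsomal mgst2 had 0.562 to 3.51 CPM in untrained_TG and 2.13 to 13.6 CPM in untrained_WT, and fell by 1.94 ± 0.45 (adjusted p = 0.00149). The mu-class gene gstm.2 rose by 1.06 ± 0.23 (adjusted p = 0.000893), but it is 1 of 3 tandem copies whose reads may be split, and the call was lost with library totals only (0.49, adjusted p = 0.199). The pi-class gene gstp1 had 30.5 to 88.4 CPM in untrained_TG, with a median of 40.8, and 33.7 to 118 CPM in untrained_WT, with a median of 72.4. It fell by 0.68 ± 0.24 (adjusted p = 0.0239), a call lost when only the libraries compared were fitted (-0.69, adjusted p = 0.0519). The gene gstp1 also has a close copy. The remaining calls were gsta.1, another tandem copy, and gstt1b, which were higher, and gstz1, which was lower, each by at most 0.74 log2 units. The call of gstt1b was lost without untrained_TG replicate 7 (0.50, adjusted p = 0.0506).

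Of the 11 NRF, KEAP1, nqo1 and heme oxygenase genes, 2 rose and 3 fell in untrained_TG. That is 45.5% called, close to the 43.4% among all genes tested. The gene nfe2l1a, which encodes an NRF1 factor known in mammals for its role in proteasome gene expression, had 2.87 to 11.3 CPM in untrained_TG, with a median of 9.41, and 7.39 to 56.7 CPM in untrained_WT, with a median of 42.7. It fell by 2.13 ± 0.36 (adjusted p = 4.48e-05), with untrained_WT replicate 5 alone inside the transgenic range. Its paralog nfe2l1b fell by 1.01 ± 0.18 (adjusted p = 9.58e-05), with 12.8 to 21.4 CPM in untrained_TG and 22.6 to 45.9 CPM in untrained_WT. NRF2 genes did not pass the test, at 0.31 ± 0.19 for nfe2l2a (adjusted p = 0.195) and 0.79 ± 0.42 for nfe2l2b (adjusted p = 0.13). Without untrained_WT replicate 7 nfe2l2a was called higher (0.46, adjusted p = 0.0395).

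The KEAP1 pair went opposite ways. The gene keap1a had 14.8 to 51.5 CPM in untrained_TG, with a median of 19.8, and 9.6 to 12 CPM in untrained_WT, with a median of 10.4, and rose by 1.18 ± 0.22 (adjusted p = 0.000145). Its paralog keap1b had 10.8 to 17.1 CPM in untrained_TG, with a median of 14.5, and 13.9 to 32.7 CPM in untrained_WT, with a median of 23.6, and fell by 0.64 ± 0.17 (adjusted p = 0.00442). The quinone reductase gene nqo1, a well known NRF2 target, had 4.37 to 11.2 CPM in untrained_TG and 6.03 to 9.72 CPM in untrained_WT (0.07 ± 0.18, adjusted p = 0.793). Inducible heme oxygenase hmox1a did not pass, at 0.17 ± 0.43 (adjusted p = 0.772). Its log2 fold change was 1.13 without untrained_WT replicates 3, 5 and 7 (adjusted p = 0.0553) and -0.43 with library totals only (adjusted p = 0.502). Constitutive heme oxygenase hmox2a had 34.5 to 54.1 CPM in untrained_TG, with a median of 46.4, and 15.1 to 28.4 CPM in untrained_WT, with a median of 27.1. It rose by 0.93 ± 0.14 (adjusted p = 1.77e-05), a call lost with library totals only (0.41, adjusted p = 0.0888).

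**Figure D4:**
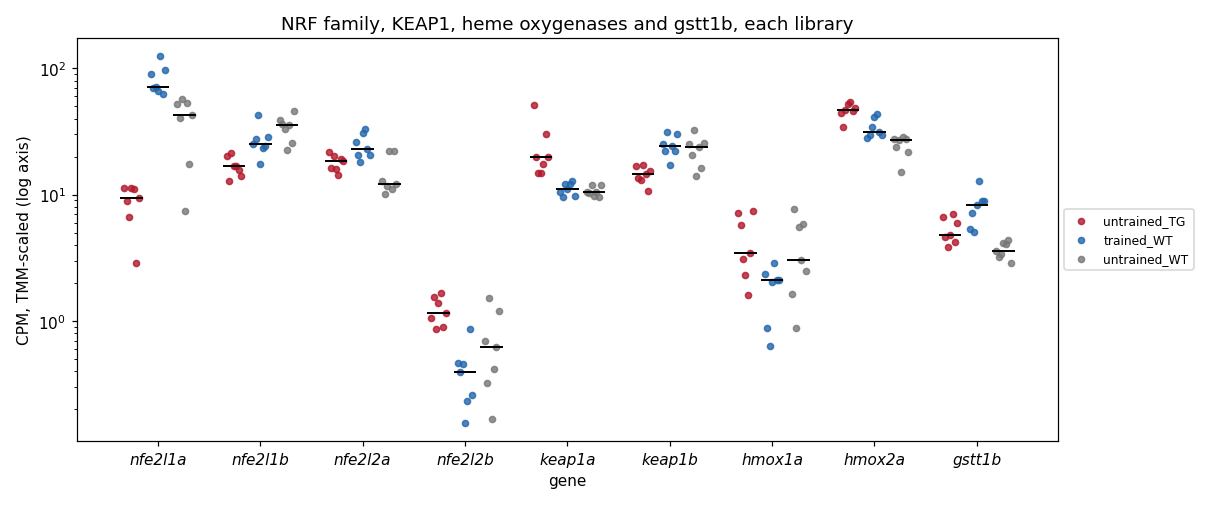
CPM (log axis) of NRF family, KEAP1 and heme oxygenase genes and of gstt1b, by gene on the x axis. Points are libraries (untrained_TG, trained_WT and untrained_WT from left to right, n = 7 each) and bars are medians. For nfe2l1a the trained_WT points, at 62.7 to 125 CPM, lie above all others and the untrained_TG points, at 2.87 to 11.3 CPM, lie lowest apart from 1 untrained_WT library within their range.

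The balance of 10 pairs of paralogs, or of related genes in the case of gstk1 and gstk4, was tested as the log2 ratio of counts in each library, which no library scaling can change. These pairs were chosen after their fold changes had been seen. Of the 10, 6 differed between untrained_TG and untrained_WT (exact two-sided permutation test, adjusted over 20 tests). For gpx4a over gpx4b the ratio was -2.19 to -1.6 in untrained_TG and -0.86 to 1.38 in untrained_WT, a difference of -2.65 (exact permutation p = 0.000583, adjusted p = 0.00291). For keap1a over keap1b it was -0.21 to 1.62 in untrained_TG and -1.46 to -0.52 in untrained_WT, a difference of 1.64 (the same exact permutation p and adjusted p). For both pairs every untrained_TG library lay outside the untrained_WT range. The ratio also did not overlap for mgst3a over mgst3b (difference 2.37) and gstk1 over gstk4 (difference 1.31), and it differed with overlap for hmox2a over hmox2b (1.93, exact permutation, adjusted p = 0.00971) and gpx1a over gpx1b (2.77, exact permutation, adjusted p = 0.0183). Counts of hmox2b were few, at 0.0595 to 0.733 CPM in untrained_TG and 0.27 to 1.04 CPM in untrained_WT.

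**Figure D5:**
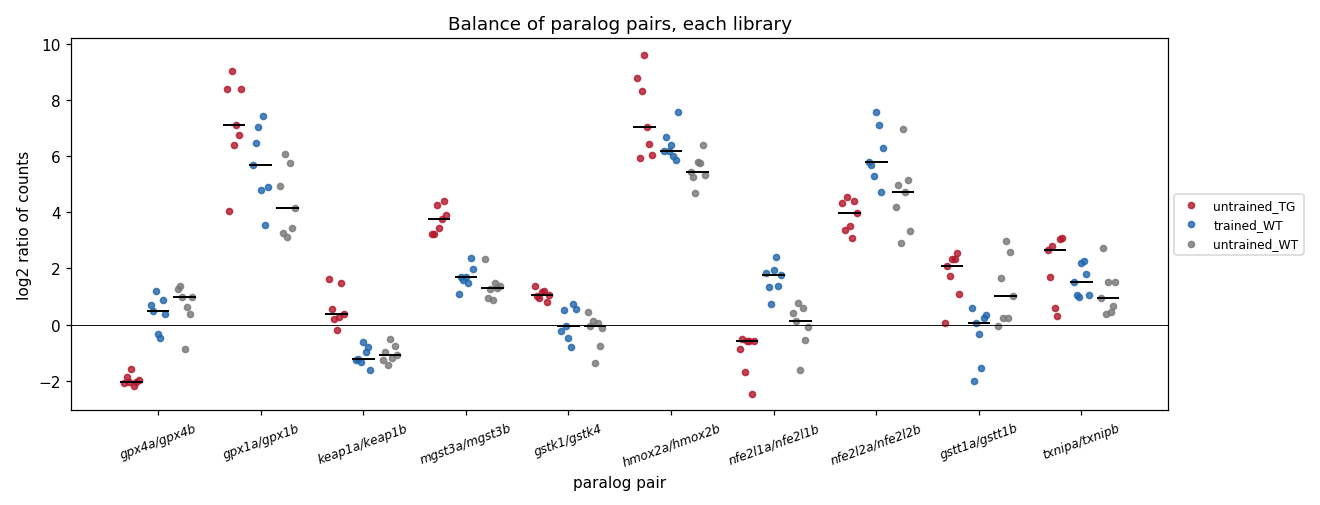
Log2 ratio of counts (y axis) for 10 gene pairs (x axis). Points are libraries (untrained_TG, trained_WT and untrained_WT from left to right, n = 7 each), bars are medians and the line marks equal counts. For gpx4a/gpx4b the untrained_TG points lie between -2.19 and -1.6, below all wild-type points, and for nfe2l1a/nfe2l1b the medians are 1.76 in trained_WT and 0.14 in untrained_WT.

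Exercise training gave few calls among these genes. In trained_WT against untrained_WT, 2 of 76 rose and 0 fell, or 2.63%, close to the 2.95% called among all genes tested, of which 2.25% were higher and 0.702% lower. At an unadjusted p under 0.05, 12 were higher and 4 lower, and 3729 of all 18947 genes tested passed that mark. DESeq2 called 5 higher and 2 lower, against 705 higher and 562 lower of all 27273 genes it tested. With limma-voom 3 were higher and 1 lower, against 631 higher and 347 lower of all 18947. The median log2 fold change of the 76 was 0.03, against -0.07 over all genes.

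The theta-class transferase gene gstt1b had 5.03 to 12.7 CPM in trained_WT, with a median of 8.28, and 2.86 to 4.38 CPM in untrained_WT, with a median of 3.57. Every trained library lay above every untrained_WT library, and the gene rose by 1.14 ± 0.19 (adjusted p = 0.00142). With library totals only the adjusted p was 0.0574 (0.82). The paralog gstt1a, at 1.76 to 11.3 CPM in trained_WT and 3.44 to 32.5 CPM in untrained_WT, did not pass the test (-0.87 ± 0.50, adjusted p = 0.352). The log2 ratio of gstt1a to gstt1b was lower in trained_WT by a difference of -1.61 (exact permutation, adjusted p = 0.044), and without untrained_WT replicate 7 it was -1.39 (exact permutation, adjusted p = 0.0793).

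The NRF2 gene nfe2l2a had 18 to 32.9 CPM in trained_WT, with a median of 23, and 10.1 to 22.1 CPM in untrained_WT, with a median of 12.1. It rose by 0.76 ± 0.19 (adjusted p = 0.0296), with untrained_WT replicates 5 and 7 inside the trained range. The call was lost with library totals only (0.39, adjusted p = 0.353) and when only the libraries compared were fitted (0.74, adjusted p = 0.0812). Its relative nfe2l1a had 62.7 to 125 CPM in trained_WT, with a median of 70.7, and 7.39 to 56.7 CPM in untrained_WT, with a median of 42.7. These groups did not overlap, yet the gene missed the threshold (1.11 ± 0.34, adjusted p = 0.083, against 0.0271 by DESeq2), and untrained_WT replicates 5 and 7 held the lowest values. Against its paralog nfe2l1b, whose log2 fold change was -0.33 ± 0.18 (adjusted p = 0.313), the log2 ratio was higher in trained_WT by 1.67 (exact permutation, adjusted p = 0.00466). The ratio of hmox2a to hmox2b was higher by 0.88 (exact permutation, adjusted p = 0.0233). Counts of hmox2b were few, at 0.151 to 0.675 CPM in trained_WT and 0.27 to 1.04 CPM in untrained_WT. By edgeR neither gene was called, at 0.47 ± 0.14 for hmox2a (adjusted p = 0.0749) and -0.40 ± 0.48 for hmox2b (adjusted p = 0.696). DESeq2 called hmox2a higher (0.47, adjusted p = 0.0442).

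Of the 10 tested genes of the mitochondrial list, 0 were called in trained_WT by edgeR, DESeq2 or limma-voom. An unadjusted p under 0.05 in edgeR was found for 3 of the 10 and for 3729 of all 18947 genes tested. As edgeR called only 2.95% of all genes tested here, 0 of 10 does not set this list apart. The log2 fold changes of the 10 lay between -0.37 and 0.44, with a median of 0.26, against -0.07 over all genes. The gene sod2 had 145 to 195 CPM in trained_WT, with a median of 175, and 75.8 to 178 CPM in untrained_WT (0.40 ± 0.17, adjusted p = 0.195). Peroxiredoxin 3 had 173 to 250 CPM in trained_WT, with a median of 198, and 105 to 199 CPM in untrained_WT (0.44 ± 0.16, adjusted p = 0.132). For both, the lowest untrained_WT libraries were replicates 3 and 7. The glutathione synthesis gene gclc had a median of 20.5 CPM in trained_WT and 15 CPM in untrained_WT (0.39 ± 0.19, adjusted p = 0.252). Thioredoxin-binding txnipa had 608 to 778 CPM in trained_WT and 222 to 618 CPM in untrained_WT, and missed the threshold (0.74 ± 0.21, adjusted p = 0.0572), while DESeq2 gave an adjusted p of 0.0204. Just above the threshold were gpx8 at -1.08 ± 0.30 and nfe2l3 at -1.13 ± 0.31 (adjusted p = 0.05 each). DESeq2 called both lower, with an adjusted p of 0.00996 for gpx8 and 0.0116 for nfe2l3. The highest nfe2l3 value, 11.7 CPM, came from untrained_WT replicate 3, the library with the highest germ line marker sum (58.9 CPM, against at most 9.59 CPM in any trained_WT library), and the part of germ cells in it was not tested. Without untrained_WT replicates 3 and 7 the log2 fold change of nfe2l3 was -0.45 (adjusted p = 0.388).

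The transgene and training were also compared directly. In untrained_TG against trained_WT 16 of the 76 rose and 14 fell, or 39.5%, against 41.6% among all genes tested (19.2% higher and 22.5% lower). Libraries of these groups did not overlap for 14 of the 76, against 19.7% among all genes. This comparison and the one with untrained_WT share the transgenic libraries. Of the 10 tested genes of the mitochondrial list, 6 were higher in untrained_TG, 3 were lower and 1 was not called. Those lower were gstk2 (-1.75 ± 0.41, adjusted p = 0.0014), gstk4 (-1.14 ± 0.28, adjusted p = 0.00233) and TXNRD2 (-1.09 ± 0.32, adjusted p = 0.00782). The gene not called was gstk1 (0.034 ± 0.16, adjusted p = 0.889). The mitochondrial genes sod2 (1.14 ± 0.17, adjusted p = 1.34e-05), prdx3 (0.78 ± 0.16, adjusted p = 0.000386), txn2 (0.80 ± 0.16, adjusted p = 0.00035) and glrx5 (1.45 ± 0.18, adjusted p = 1.23e-06) were higher in untrained_TG, as were gclc (1.97 ± 0.19, adjusted p = 4.45e-08) and mgst3a (2.30 ± 0.25, adjusted p = 2.11e-07). The gene nfe2l1a was lower, at -3.24 ± 0.37 (adjusted p = 3.97e-07) and so was gpx3, at -3.35 ± 0.60 (adjusted p = 0.000107), both with no overlap. Also lower was gstt1b (-0.61 ± 0.19, adjusted p = 0.0132). The gene nfe2l2b had 0.859 to 1.67 CPM in untrained_TG and 0.157 to 0.858 CPM in trained_WT, and was higher by 1.60 ± 0.43 (adjusted p = 0.00433). Its paralog nfe2l2a missed the threshold (-0.45 ± 0.19, adjusted p = 0.057), but it was called lower without untrained_WT replicate 7 (-0.46, adjusted p = 0.0321).

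Genes that work beside these systems were examined from 2 lists. Of 12 genes listed for NADPH supply, which need not each make NADPH themselves, 2 rose and 2 fell in untrained_TG against untrained_WT. Among all genes tested 18.3% were higher and 25.1% lower. In trained_WT 0 of the 12 were called by edgeR, against 2.95% among all genes. An unadjusted p under 0.05 in edgeR was found for 5 of the 12 and for 3729 of all 18947 genes tested. DESeq2 called 1 higher in trained_WT and limma-voom 0. The transhydrogenase gene nnt rose, with 440 to 882 CPM in untrained_TG and 29.6 to 120 CPM in untrained_WT (3.31 ± 0.28, adjusted p = 4.28e-09). So did the isocitrate dehydrogenase gene idh2, with 7375 to 12361 CPM in untrained_TG and 1835 to 3209 CPM in untrained_WT (1.76 ± 0.16, adjusted p = 1.04e-08). The malic enzyme genes me1 (-1.07 ± 0.30, adjusted p = 0.00637) and me2 (-1.19 ± 0.17, adjusted p = 6.85e-06) fell.

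Of 27 tested genes of other oxidant handling, 4 rose and 12 fell in untrained_TG against untrained_WT, and the median was -0.52 on the log2 scale. Among all genes tested 18.3% were higher and 25.1% lower, with a median of -0.13. The mitochondrial gene romo1 rose by 1.2 ± 0.12 (adjusted p = 8.2e-08), and ccs, which loads copper into the cytosolic superoxide dismutase, fell by 1.52 ± 0.30 (adjusted p = 0.000332). Genes of the BACH1 repressor fell too, bach1a by 1.34 ± 0.29 (adjusted p = 0.000728) and bach1b by 0.74 ± 0.21 (adjusted p = 0.00612). In trained_WT 2 of the 27 rose and 0 fell, where 2.25% of all genes tested were higher and 0.702% lower. Both that rose encode small MAF proteins, the DNA-binding partners of NRF factors. The gene mafk had 1.24 to 3.75 CPM in trained_WT and 0.195 to 1.24 CPM in untrained_WT (2.48 ± 0.49, adjusted p = 0.00576), and maff rose by 0.90 ± 0.16 (adjusted p = 0.00299). In untrained_TG mafk instead had 0 to 0.212 CPM and fell by 2.08 ± 0.51 against untrained_WT (adjusted p = 0.00235).

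Markers of other cell types were read beside these results. All 4 endothelial markers rose in untrained_TG, with summed levels of 136 to 275 CPM, against 58 to 146 CPM in untrained_WT. All 4 tested germ line markers fell, with summed levels of 0.0172 to 1.8 CPM in untrained_TG and 0.477 to 58.9 CPM in untrained_WT. Of the 7 red blood cell, 4 skin and 8 liver markers tested, 0 were called in untrained_TG by edgeR, DESeq2 or limma-voom, and 1 red blood cell and 1 skin marker had an unadjusted p under 0.05 in edgeR. Of 8 white blood cell markers 2 were higher and 2 lower in untrained_TG. In each of the lists for adipocytes (3 tested), matrix and fibroblasts (5 tested) and nerve (4 tested), 1 marker rose and 0 fell. Adipocyte markers summed to 40.21 to 64.1 CPM in untrained_TG and 9.85 to 40.20 CPM in untrained_WT. The part of these cells in the results was not tested.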

How the data were processed

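The deposited file of the authors holds raw counts of reads per gene. Per the file headers, the authors' further deposited tables give log2 fold changes with errors, p-values, a test statistic score and, as signal, counts divided by a size factor per library. Per the submitters' processing notes, STAR 2.4.0i, HTSeq 0.9.1, DESeq2 and build GRCz10 were used. Neither annotation release nor counting strand is stated in the sources, so overlapping, antisense and near-identical genes may share reads. Symbols are the authors'. Entries naming no gene (15.0 to 18.6% of reads) stayed out of library sizes. Untrained_WT replicate 1, trained_WT replicate 7 and untrained_TG replicate 8 were not analysed here.

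All 21 libraries were fitted in 1 model of group with edgeR 4.0.16 (R 4.3.3; TMM, filterByExpr). Benjamini-Hochberg adjustment ran over 18947 genes, with calls at 0.05. SE is the log2 fold change over the square root of F. Ratios added 0.5 counts to each gene. The fit was tested on simulated data. No 2 libraries of a group matched to within sampling noise.

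Members, lists and alternatives were chosen with earlier results of these data known. Named were those of 37 core symbols that the files hold and, per contrast, the 6 other genes with the smallest p and a mean of at least 50 counts. Other named genes were chosen after their values were seen. Alternatives were DESeq2 1.42.0, limma-voom (limma 3.58.1, sample weights), RLE scaling, unscaled library totals, mitochondrially encoded genes left out, no filter, only the libraries compared, a replicate block, robust dispersion and libraries left out. Ratios to cs and between paralogs, with their alternatives, were added after seeing the data.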

Additional observations from a re-analysis of the deposited data

Results flagged for a closer look

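The named genes were examined in each group of 7 libraries, and 15 of the 141 gene and group pairs with a mean of at least 10 counts held a library set apart from its nearest neighbour by a large share of the group's range. Chance alone flags about 1 group in 20 where values have a normal spread, which CPM values need not have. Among untrained_TG libraries, keap1a stood out high in replicate 1 (51.5 CPM, group median 19.8), gstk2 in replicate 4 (31.6 CPM, median 8.62), prdx2 in replicate 5 (166 CPM, median 108), gpx3 in replicate 2 (0.423 CPM, median 0.179) and prdx1 in replicate 2 (18.5 CPM, median 7.81), and nfe2l3 stood out low in replicate 6 (2.05 CPM, median 2.94).

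In trained_WT, mgst3a stood out high in replicate 6 (32.3 CPM, median 19.9) and srxn1 in replicate 2 (1.0 CPM, median 0.234). In untrained_WT, high values were found for nfe2l3 in replicate 3 (11.7 CPM, median 3.34), prdx1 in replicate 5 (51.4 CPM, median 13.4), gstk4 in replicate 5 (562 CPM, median 302), TXNRD2 in replicate 2 (2.7 CPM, median 1.23), gclm in replicate 8 (7.6 CPM, median 4.25) and srxn1 in replicate 8 (1.21 CPM, median 0.35). The lowest glrx value was in untrained_WT replicate 3 (14.6 CPM, median 20.1).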

How the results depend on the processing

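Of the 47 genes named by rule, 28 kept their call, or lack of one, under all 13 alternatives in untrained_TG against untrained_WT, 38 in trained_WT against untrained_WT and 37 in untrained_TG against trained_WT. Library totals as the only scaling gave 8 higher and 28 lower in untrained_TG, where 1538 of all 18947 genes tested were higher and 8139 lower. In trained_WT it gave 0 higher and 3 lower, where 201 of all genes were higher and 927 lower. Under this scaling 12 of the 47 turned direction in untrained_TG against untrained_WT, of which gstt1b (-0.0084) and prdx2 (-0.044) had been called. In trained_WT the higher calls were 5 with DESeq2 and 1 with only the libraries compared. Over all genes they were 705 of 27273 with DESeq2 and 289 of 18115 with only the libraries compared. The lower calls were 2 with DESeq2, 2 with only the libraries compared, 2 with robust dispersion, and 1 each with limma-voom, RLE scaling, mitochondrially encoded genes left out, and without untrained_TG replicate 7. Over all genes they were 562 of 27273 with DESeq2, 86 of 18115 with only the libraries compared and 142 of 18947 with robust dispersion. With limma-voom they were 347 of 18947 and with RLE scaling 140 of 18947. With mitochondrially encoded genes left out they were 125 of 19276, and without untrained_TG replicate 7 they were 120 of 19248. Leaving out libraries gave 16 to 21 higher and 14 to 18 lower calls in untrained_TG, and 2 to 3 higher and 0 to 1 lower in trained_WT. Over all 19036 to 19427 genes then tested, 3376 to 3876 were higher and 4057 to 4568 lower in untrained_TG. In trained_WT 210 to 402 of them were higher and 52 to 120 lower. With sdha in place of cs, the ratios of glrx5 (0.42), prdx3 (0.063) and sod2 (0.39) in untrained_TG and of txn2 (0.023) in trained_WT turned direction. Deviations from the group means correlated at -0.364 to 0.397 between same-numbered libraries, so the numbers did not pair them. The replicate block gave 17 higher and 14 lower calls in untrained_TG and 2 higher and 0 lower in trained_WT. Of all 18947 genes it called 3225 higher and 4045 lower in untrained_TG, and 306 higher and 63 lower in trained_WT. The authors' deposited table called 32 of the 34 genes called here in untrained_TG, in the same direction, and both of those in trained_WT. In all it called 17 of the 80 higher and 15 lower in untrained_TG. For trained_WT it called 5 higher and 2 lower, more than the 2 higher and 0 lower called here by edgeR. Its calls over all genes are not given here. DESeq2 as run here gave the same counts, 17 higher and 15 lower in untrained_TG and 5 higher and 2 lower in trained_WT. Of all 27273 genes, that DESeq2 run called 3891 higher and 5229 lower in untrained_TG, and 705 higher and 562 lower in trained_WT. The cause of these shifts was not tested. Genes under about 1 CPM are limited by depth.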
